A study of Mus musculus with 6 samples.

Results

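Tight junctions and desmosomes are the cell-cell contacts that seal an epithelial sheet and tie it to its keratin filaments, and 50 genes for their components were compared between the M0505 and STOSE lines of mouse ovarian surface epithelial (OSE) cells. The 50 were taken by gene symbol from the 20405 genes with a symbol in the expression table: every claudin (Cldn) with a numbered symbol, the zonula occludens genes (Tjp), the desmogleins (Dsg) and desmocollins (Dsc), the plakophilins *Pkp1* to *Pkp4*, and *Ocln*, *F11r*, *Jam2*, *Jam3*, *Cgn*, *Marveld2*, *Marveld3*, *Dsp*, *Jup*, *Ppl* and *Evpl*. They comprised 33 tight junction genes and 17 genes of the desmosome or of the plakin family, and each was a member through its symbol. Where several probe sets read a gene, the one with the highest average was used.

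M0505 cells are an OSE line of FVB/N mice, hybridized here from early passage as the parental, untransformed group, and STOSE cells are the line that arose when the parental line was kept in culture for a long time and transformed on its own. Both were grown in the same MOSE medium with serum, EGF and ITSS, and 3 arrays of total RNA were made from each on the Mouse Gene 1.0 ST design of Affymetrix. STOSE is a single transformed line, both lines are aneuploid, and no transgene or drug separates them, so the comparison is of 1 line with its parent and not of several independent transformations. The arrays are labelled as biological replicates without saying whether they came from separate cultures, so the p-values measure only the spread between these samples. RNA of a whole culture was measured, so fewer cells that express a gene and less RNA of it per cell cannot be told apart.

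In a tight junction, claudins form the strands that close the space between neighboring cells, and different claudins make the seal either tight or permeable to particular ions. Occludin and the other MARVEL proteins and the junctional adhesion molecules (JAMs) lie in or beside the strands, and the zonula occludens proteins (Tjp) and cingulin (*Cgn*) link them to actin. In a desmosome, the desmogleins and desmocollins are the cadherins that bridge the cells, while plakoglobin (*Jup*), the plakophilins and desmoplakin (*Dsp*) connect their tails to keratin. The ovarian surface epithelium is a simple, mesothelium-like layer that is known for sparse desmosomes and incomplete tight junctions.

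Values are robust multi-array average (RMA) expression values on the log2 scale, and differences are STOSE minus M0505 on that scale. A gene was called changed when limma gave an adjusted p under 0.05 and the linear fold change was at least 2. The background was taken as the 95th percentile of the mean values of olfactory receptor probe sets, which was 4.72. The arrays of 1 line correlated at 0.997 to 0.999 over all genes and those of different lines at 0.943 to 0.950. Of 12 markers of the ovarian surface epithelium, 11 were above background in M0505 cells and 10 in STOSE cells. In STOSE cells 5 (41.7%, against 7.59% of all genes) were called lower, among them *Aldh1a2* (from 11.4 to 3.95) and *Gata4* (from 10.8 to 9.40). At the adjusted p alone 10 of the 12 were lower and none higher, against 24.8% and 31.6% of all genes. The mesothelial markers *Upk3b* (12.25 and 11.91) and *Msln* (11.13 and 10.52) were lower by less than 2-fold and far above background in both lines. The list shares *Krt7*, *Krt8*, *Krt18* and *Krt19* with the filament genes described below. Leukocyte markers were above background in 2 of 8 cases in each line, *Cd68*, which fell from 9.78 to 6.96, and *Cd3e* (5.09 and 5.31). *Ptprc* was below it at 3.79 and 3.81. At the adjusted p alone 1 of the 8 was lower and 2 were higher, against 24.8% and 31.6% of all genes. Of 6 granulosa markers *Inha* (from 9.61 to 5.68) and *Nr5a1* (from 7.97 to 5.39) were called lower (33.3%, against 7.59% of all genes). At the adjusted p alone 3 of the 6 were lower and 1 was higher, against 24.8% and 31.6% of all genes. *Foxl2* (6.76 and 6.39) was lower by less than 2-fold, and *Amh* (4.68 and 4.95) was higher. *Fshr* (4.31 and 4.42) and *Cyp19a1* (3.96 and 3.83) were below background in both lines.

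The start sites of the called genes whose promoters were at hand, and of *Cldn4*, which lies beside *Cldn3*, are shown first because the claudins gave both genes that rose and 1 of the 5 that fell. The sequences come from the RefSeq promoter windows of assembly GRCm38.p6, 5′ to 3′ on the strand of the gene, and hold the 250 bases before the annotated start. Capitals mark every GC box (GGGCGG, or CCGCCC on the other strand) and every E-box of the form bound by Snail and Zeb repressors (CACCTG, or CAGGTG on the other strand). *Cldn3* lies at chr5:134985964-134986213 on the plus strand, *Cldn4* at chr5:134946935-134947184 on the minus strand and *Cldn1* at chr16:26371840-26372089 on the minus strand. The gene that the array calls *Cldn10a* is *Cldn10* in RefSeq and has starts at chr14:118787621-118787870 and chr14:118854700-118854949, both on the plus strand, and which start the probe sets read is not given.
Cldn3: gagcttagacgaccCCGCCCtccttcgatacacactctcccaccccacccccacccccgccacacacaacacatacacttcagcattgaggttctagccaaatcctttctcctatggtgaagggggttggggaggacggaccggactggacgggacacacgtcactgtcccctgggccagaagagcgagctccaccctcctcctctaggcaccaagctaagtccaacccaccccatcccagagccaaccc
Cldn4: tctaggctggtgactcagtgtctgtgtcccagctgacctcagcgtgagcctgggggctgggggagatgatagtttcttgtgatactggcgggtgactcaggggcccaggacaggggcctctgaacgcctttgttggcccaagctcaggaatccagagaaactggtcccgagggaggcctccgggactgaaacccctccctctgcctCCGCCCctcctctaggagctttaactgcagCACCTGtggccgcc
Cldn1: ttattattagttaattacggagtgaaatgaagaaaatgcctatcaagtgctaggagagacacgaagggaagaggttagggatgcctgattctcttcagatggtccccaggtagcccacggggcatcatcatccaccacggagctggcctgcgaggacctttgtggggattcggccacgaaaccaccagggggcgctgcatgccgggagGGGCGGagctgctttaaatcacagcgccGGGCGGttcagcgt
Cldn10 first start: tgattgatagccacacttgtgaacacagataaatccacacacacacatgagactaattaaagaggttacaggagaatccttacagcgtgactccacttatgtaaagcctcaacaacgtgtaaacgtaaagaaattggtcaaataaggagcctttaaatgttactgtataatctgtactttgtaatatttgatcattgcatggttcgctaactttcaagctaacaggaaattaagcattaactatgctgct
Cldn10 second start: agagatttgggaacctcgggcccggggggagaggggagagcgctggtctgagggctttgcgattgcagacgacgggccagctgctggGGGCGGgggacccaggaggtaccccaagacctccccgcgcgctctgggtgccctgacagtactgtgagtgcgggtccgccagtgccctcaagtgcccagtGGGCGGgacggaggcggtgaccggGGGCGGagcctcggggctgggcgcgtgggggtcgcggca

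CG dinucleotides are the sites that DNA methylation acts on. The window of *Cldn3* holds 9 CG, that of *Cldn4* holds 7, that of *Cldn1* holds 14, and those of the *Cldn10* starts hold 4 and 22, against a median of 6 and quartiles of 2 and 16 over 32851 RefSeq windows of the same length. Among the 5 windows the E-box is in that of *Cldn4* alone, 14 bases before the start, and no E-box of these letters is in the windows of *Cldn3*, *Cldn1* or *Cldn10*. GC boxes number 1 in *Cldn3*, 1 in *Cldn4*, 2 in *Cldn1*, 0 at the first *Cldn10* start and 3 at the second. RefSeq windows were matched for 27 of the 50 genes, with 39 windows in all. Of these, 23.1% held the E-box and 56.4% a GC box, compared with 17.2% and 32.7% of all windows, and 2 windows held the Grainyhead motif AACNNGTT, which 3.64% of all windows do. Some windows of the same gene overlap, so a single match can count more than once, and the difference in shares was not tested. Matches were sought on both strands, those marked in capitals do not overlap one another, and a match describes the sequence and not a bound site. No window was matched for *Ppl*, *Jam2*, *Jam3* or *Pkp2*.

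Between the lines, 7 of the 50 genes were called: 5 were lower in STOSE cells (*Ppl*, *Cldn10a*, *Jam3*, *Pkp2* and *Jam2*) and 2 were higher (*Cldn3* and *Cldn1*). That is 10% lower and 4.0% higher, against 7.59% lower and 4.9% higher among all 20405 genes (12.5% in either direction), so the shares lay near those of the whole array and are no result about the group. With each array centred on its median the 50 genes kept 5 and 2 calls, while the calls among all genes turned from 1548 lower and 1000 higher to 1177 (5.77%) lower and 1466 (7.18%) higher. The median difference of the 50 genes was 0.09 and that of all genes was 0.08. The differences of the 50 genes ran from -3.11 to 4.08. The array values of 32 of the 50 did not overlap between the lines, compared with 64.6% of all genes. The single genes are given below by the place of each protein in the junction.

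**Figure D1:**
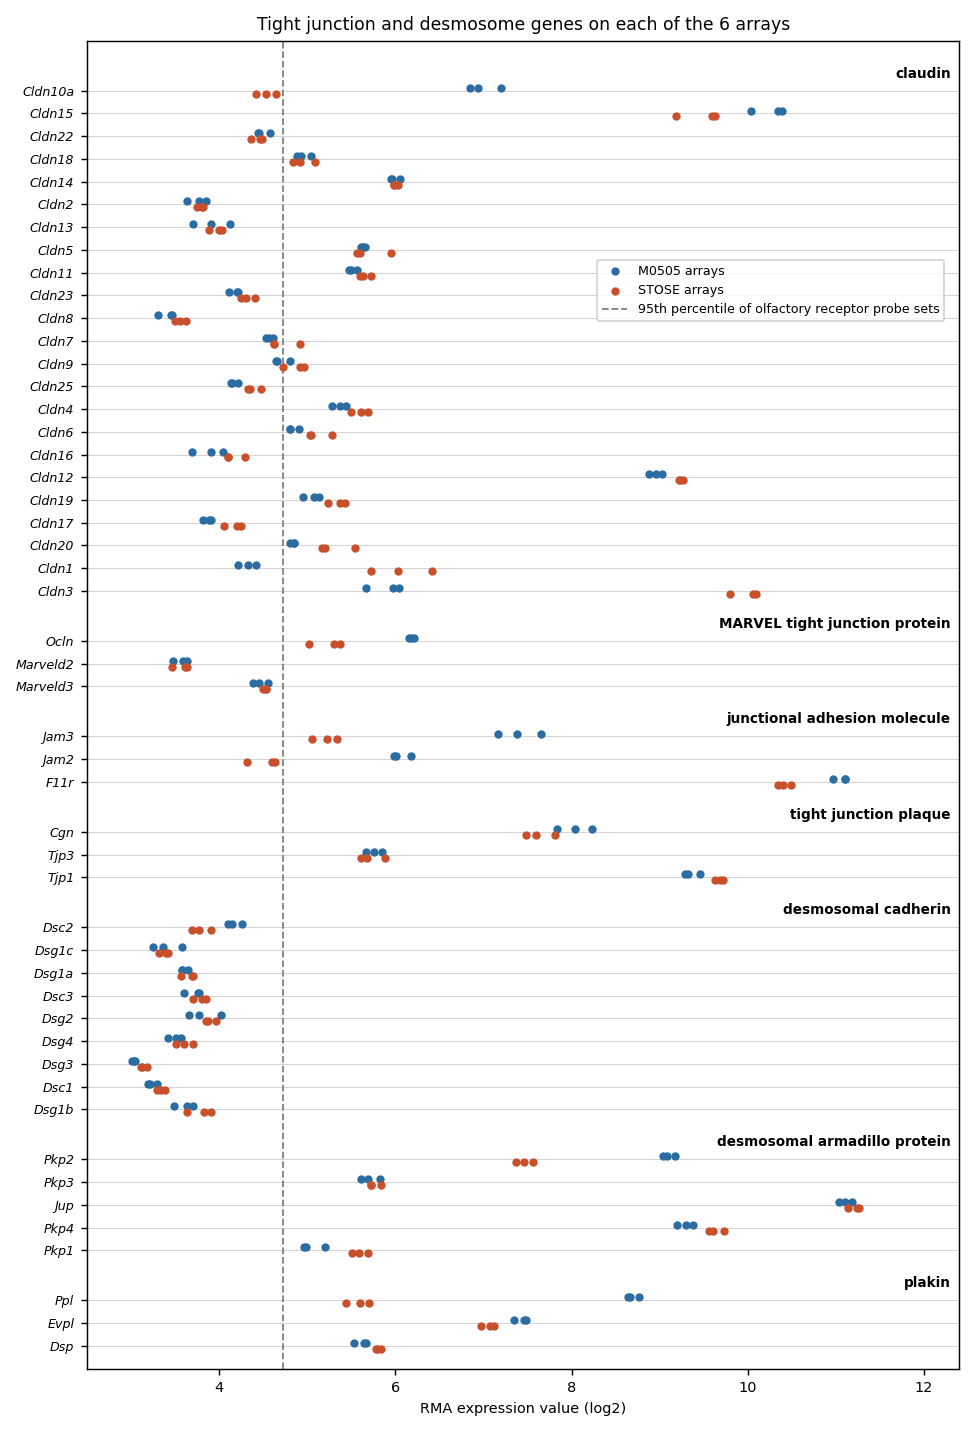
RMA expression value (log2, horizontal axis) of 49 of the 50 tight junction and desmosome genes on the 3 M0505 arrays (blue points) and the 3 STOSE arrays (orange points), grouped by role, with the background of 4.72 as a dashed line. *Cldn3* moves from a mean of 5.90 in M0505 cells to 9.98 in STOSE cells, *Ppl* moves the other way from 8.69 to 5.58, and all 9 desmosomal cadherins stay left of the dashed line in both lines.

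The claudins gave the largest difference of the 50 genes. *Cldn3* encodes a sealing claudin of simple epithelia and measured 5.67, 5.97 and 6.05 on the M0505 arrays and 9.80, 10.06 and 10.09 on the STOSE arrays. Every STOSE array lay far above every M0505 array. *Cldn3* rose by 4.08 (SE 0.12), a linear fold change of 17.0 (limma adjusted p = 4.15e-08), and leaving out any 1 array kept the difference between 3.97 and 4.18. *Cldn1*, the claudin on which the water barrier of the skin depends, measured 4.33, 4.21 and 4.42 in M0505 cells and 6.41, 6.03 and 5.72 in STOSE cells. All M0505 arrays were below background and all STOSE arrays above it, without overlap, although the STOSE arrays were spread over a wider range (SD 0.35 against 0.10). The difference was 1.73 (SE 0.16, limma adjusted p = 2.51e-05), and with the M0505 arrays set to the background the rise was at least 2.52-fold.

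*Cldn10a*, a claudin whose splice forms make ion-selective pores, changed in the opposite direction. It measured 7.20, 6.94 and 6.85 in M0505 cells and 4.42, 4.53 and 4.65 in STOSE cells. All M0505 arrays were clearly above background, and all STOSE arrays fell below it. The difference was -2.46 (SE 0.10, limma adjusted p = 3.21e-07), at least 4.83-fold lower when the STOSE arrays are set to the background. The other probe set of the gene gave -1.91, in the same direction.

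*Cldn4*, the sealing claudin that is the next gene to *Cldn3*, did not follow it. It measured 5.44, 5.28 and 5.38 in M0505 cells and 5.61, 5.50 and 5.69 in STOSE cells. The STOSE arrays were all higher, by a narrow margin. The difference of 0.23 (95% interval 0.07 to 0.40, limma adjusted p = 0.0242) is a linear fold change of 1.17, and its adjusted p was lost when any of 4 arrays was left out (0.0519 to 0.0865). No other gene of the array lies between the neighbors in the RefSeq order.

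Among the other 19 claudins none reached 2-fold. *Cldn15*, a cation-pore claudin of the intestine, was lower, at 10.04, 10.39 and 10.34 in M0505 cells and 9.18, 9.60 and 9.63 in STOSE cells. The lines did not overlap, and the difference was -0.79 (SE 0.14, limma adjusted p = 0.0014). *Cldn12*, which takes part in calcium passage between cells, measured 8.96, 8.88 and 9.02 in M0505 cells and 9.22, 9.27 and 9.23 in STOSE cells. It was higher in every STOSE array, but only by 0.28 (SE 0.06, limma adjusted p = 0.0038). Small differences of the same direction that also passed the adjusted p without the fold were 0.47 for *Cldn20*, 0.29 for *Cldn19*, a kidney claudin of magnesium uptake, and 0.28 for *Cldn6*, a claudin of embryonic epithelia, whose adjusted p was lost without M0505 replicate 2 (0.0609) or 3 (0.0593). With the deposited scaling, no clear difference was seen for *Cldn11* (0.14), the claudin of myelin and Sertoli cells. The same held for *Cldn5* (0.08), the claudin of the blood-brain barrier, *Cldn7* (0.15), *Cldn9* (0.16), *Cldn14* (0.02) and *Cldn18* (0.00). The signs of the differences of *Cldn5*, *Cldn14* and *Cldn18* turned when single arrays were left out. *Cldn11* passed the adjusted p after a further quantile normalization (limma adjusted p = 0.0091) and after median centring (limma adjusted p = 0.0014). So did *Cldn14* (0.0178 and 0.0072). *Cldn5*, *Cldn7*, *Cldn9* and *Cldn18* passed it after median centring alone. The remaining 8 claudins (*Cldn2*, *Cldn8*, *Cldn13*, *Cldn16*, *Cldn17*, *Cldn22*, *Cldn23* and *Cldn25*) were below background in both lines. *Cldn16*, *Cldn17* and *Cldn25* passed the adjusted p alone, with differences of 0.28, 0.30 and 0.22, but a difference between values under the background has no clear reading.

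The other membrane proteins of the tight junction were lower where they were expressed. Occludin (*Ocln*), the MARVEL protein of the strands, measured 6.15, 6.18 and 6.21 in M0505 cells and 5.02, 5.37 and 5.31 in STOSE cells. The M0505 arrays were almost equal and all lay above the STOSE arrays. The difference was -0.95 (SE 0.09, limma adjusted p = 4.09e-05), a 1.93-fold reduction that missed the 2-fold threshold with all arrays and passed it, at -1.02, without STOSE replicate 2. Tricellulin (*Marveld2*), which seals the corners where 3 cells meet, and *Marveld3* were below background in both lines, with differences of 0.01 and 0.06.

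All 3 JAMs, immunoglobulin-like adhesion proteins of epithelium and endothelium, were lower in STOSE cells. *Jam3* measured 7.17, 7.39 and 7.65 in M0505 cells and 5.23, 5.34 and 5.05 in STOSE cells. The lowest M0505 array was well above the highest STOSE array. *Jam3* fell by 2.19 on the log2 scale (SE 0.13, limma adjusted p = 1.88e-06), or 4.58-fold. *Jam2* measured 6.17, 5.98 and 6.003 in M0505 cells and 4.32, 4.60 and 4.63 in STOSE cells. All STOSE arrays were under the background. The difference was -1.54 (SE 0.10, limma adjusted p = 3.38e-06), at least 2.52-fold lower when the STOSE arrays are set to the background. *F11r*, the JAM that is typical of epithelial tight junctions, kept a high value, at 10.97, 11.10 and 11.10 in M0505 cells and 10.34, 10.39 and 10.49 in STOSE cells. The difference of -0.65 (SE 0.07, limma adjusted p = 6.52e-05) was outside the spread of the arrays but under 2-fold.

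Because *Jam2*, *Jam3* and *Esam* are also genes of endothelium, endothelial markers were read beside them. The summed level of 8 endothelial markers was 9.92 to 10.1 on the log2 scale in M0505 arrays and 7.97 to 8.05 in STOSE arrays, and 6 of the 8 were above background in M0505 cells and 5 in STOSE cells. Only *Kdr* was called, with a mean of 9.58 in M0505 cells and 4.41 in STOSE cells. The sum adds linear levels, and *Kdr* makes up most of it in M0505 cells. None of the other markers differed by more than 0.38 in either direction, so the lower sum is mainly that of *Kdr*. The endothelial defining markers *Cdh5* (4.81 and 5.01), *Tek* (4.76 and 4.78), *Pecam1* (4.69 and 4.33) and *Emcn* (2.99 and 3.05) were at or near background in both lines. *Egfl7* (6.31 and 5.93, limma adjusted p = 0.0017), *Vwf* (5.34 and 5.50, limma adjusted p = 0.115) and *Tie1* (5.13 and 5.36, limma adjusted p = 0.0454) were above it in both lines. At the adjusted p alone 3 of the 8 were lower and 2, *Cdh5* and *Tie1*, were higher, against 24.8% and 31.6% of all genes. The part of these markers in the differences of the JAMs was not tested.

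On the cytoplasmic side of the tight junction, none of the 4 plaque genes was called. *Tjp1* (ZO-1) measured 9.46, 9.32 and 9.29 in M0505 cells and 9.72, 9.68 and 9.62 in STOSE cells. The scaffold was slightly higher on every STOSE array, by 0.32 (SE 0.07, limma adjusted p = 0.0037). *Tjp3* (ZO-3) differed by -0.04 (95% interval -0.23 to 0.16), a sign that turned under other scalings of the arrays. *Cgn*, the actin-linked plaque protein, measured 8.04, 8.23 and 7.84 in M0505 cells and 7.81, 7.49 and 7.60 in STOSE cells. The groups did not overlap but nearly touched, and the difference of -0.41 (SE 0.12, limma adjusted p = 0.0173) lost the adjusted p when the arrays were normalized again (adjusted p = 0.0526) or centred on their medians (adjusted p = 0.1134), and when any of 3 arrays was left out (0.0502 to 0.0618).

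**Figure D2:**
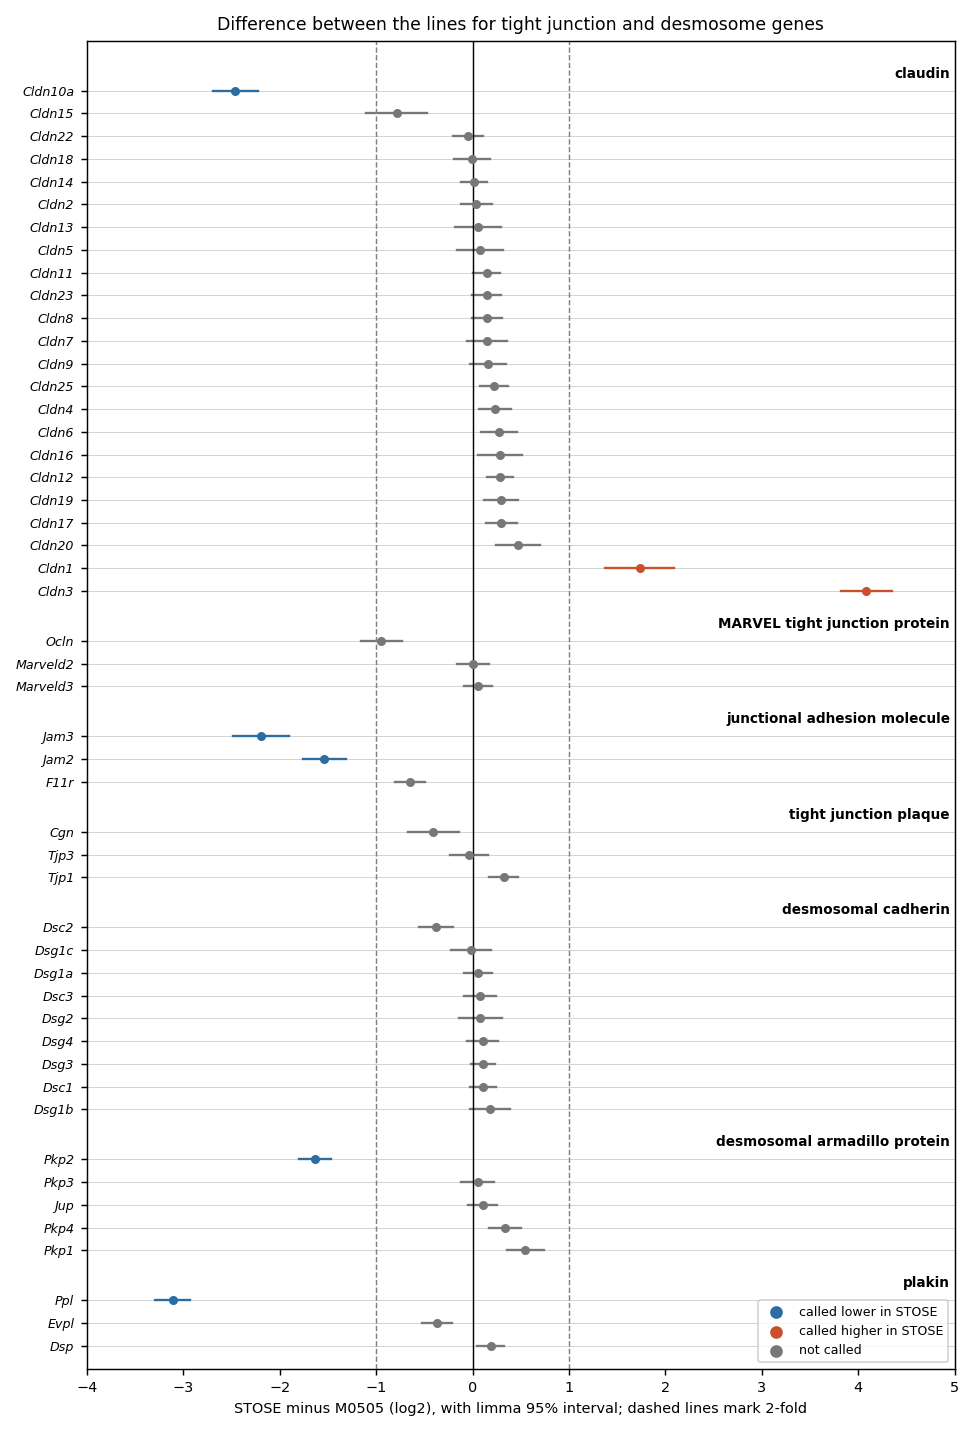
Difference between the lines (STOSE minus M0505, log2, horizontal axis) of 49 of the 50 genes with the 95% interval of limma, grouped by role, with dashed lines at 2-fold. The 5 genes called lower (blue) lie between -3.11 and -1.54, the 2 called higher (orange) are *Cldn1* at 1.73 and *Cldn3* at 4.08, and most of the others (grey) lie close to 0.

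In the desmosome, the cadherins and their cytoplasmic partners gave different pictures. All 9 desmosomal cadherins (*Dsg1a*, *Dsg1b*, *Dsg1c*, *Dsg2*, *Dsg3*, *Dsg4*, *Dsc1*, *Dsc2* and *Dsc3*) were below background in both lines, with means of 3.03 to 4.17 in M0505 cells and 3.14 to 3.90 in STOSE cells. This includes *Dsg2* and *Dsc2*, the pair that simple epithelia use. *Dsg2* measured 3.66, 4.03 and 3.77 in M0505 cells and 3.85, 3.87 and 3.96 in STOSE cells, and the lines overlapped. *Dsc2* measured 4.10, 4.27 and 4.15 in M0505 cells and 3.70, 3.91 and 3.77 in STOSE cells. *Dsc2* was the 1 desmosomal cadherin with an adjusted p under 0.05 (-0.38, SE 0.08, limma adjusted p = 0.0028), and it too lay under the background and did not pass after median centring (adjusted p = 0.0557).

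The armadillo proteins were all above background. Plakoglobin (*Jup*), which sits in both desmosomes and adherens junctions, measured 11.03, 11.18 and 11.10 in M0505 cells and 11.14, 11.24 and 11.26 in STOSE cells. The lines overlapped, and the interval of the difference, from -0.04 to 0.26, stayed well inside 2-fold. The difference passed the adjusted p after median centring alone (limma adjusted p = 0.0036). Plakophilin-2 (*Pkp2*), the main plakophilin of simple epithelia and of heart muscle, measured 9.04, 9.17 and 9.09 in M0505 cells and 7.37, 7.56 and 7.46 in STOSE cells. The arrays of each line were tightly grouped and far apart from the other line. *Pkp2* fell by 1.64 on the log2 scale (SE 0.07, limma adjusted p = 4.09e-07), or 3.11-fold.

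The other plakophilins were not lower in STOSE cells. *Pkp1* measured 4.99, 4.96 and 5.20 in M0505 cells and 5.59, 5.51 and 5.69 in STOSE cells. All STOSE arrays were higher, and the difference was 0.55 (SE 0.08, limma adjusted p = 0.000581), under 2-fold. *Pkp4*, which binds both classical and desmosomal cadherins, was higher by 0.34 (SE 0.07, limma adjusted p = 0.0043), from a mean of 9.29 to 9.63. *Pkp3* differed by 0.05 (95% interval -0.12 to 0.22), and its arrays overlapped. It passed the adjusted p after median centring alone (limma adjusted p = 0.013).

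Of the 3 plakins, the large proteins that hold on to intermediate filaments, periplakin (*Ppl*) had the largest fall of the 50 genes. It measured 8.66, 8.76 and 8.64 in M0505 cells and 5.44, 5.60 and 5.70 in STOSE cells. Every M0505 array was far above every STOSE array. *Ppl* fell by 3.11 on the log2 scale (SE 0.08, limma adjusted p = 2.28e-08), or 8.63-fold, and the difference stayed between -3.17 and -3.04 when any 1 array was left out. Its partner in the cornified envelope, envoplakin (*Evpl*), measured 7.35, 7.47 and 7.48 in M0505 cells and 7.08, 6.98 and 7.12 in STOSE cells. It was lower on every STOSE array, by 0.37 on average (SE 0.07, limma adjusted p = 0.0015). Desmoplakin (*Dsp*), the plakin that every desmosome needs, measured 5.67, 5.65 and 5.53 in M0505 cells and 5.84, 5.78 and 5.80 in STOSE cells. The difference was 0.19 (SE 0.06, limma adjusted p = 0.0301), and the other probe set of the gene gave 0.11. The adjusted p was lost with the mean of both probe sets (0.0636), with trend and robust estimation (0.0604) and without any single array other than M0505 replicate 1 (0.053 to 0.104).

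*Ppl* and *Evpl* are best known from keratinocytes, and 7 markers of cornified keratinocytes were read beside them. The summed level of these markers was 8.11 to 8.19 on the log2 scale in M0505 arrays and 8.77 to 9.01 in STOSE arrays. Involucrin (*Ivl*) was called higher, at 6.89 in M0505 cells and 8.13 in STOSE cells. At the adjusted p alone 4 of the 7 were higher and none lower, against 31.6% and 24.8% of all genes. Besides *Ivl* these were *Krt10* (5.03 and 5.56) and *Cdsn* (5.01 and 5.59) above background and *Lor* (4.04 and 4.58) below it. *Krt1* (4.07 and 4.20) and *Krtdap* (3.00 and 2.99) were below background in both lines, and *Tgm1* gave 5.91 and 5.74. The part of these markers in the differences of the plakins was not tested.

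At the adjusted p alone, with no demand on the fold, 11 of the 50 genes were lower, 15 were higher and 24 did not pass, against 24.8% lower and 31.6% higher among all genes (56.5% in either direction). Of the 6 that were lower by less than 2-fold, 4 (*Ocln*, *Cldn15*, *F11r* and *Evpl*) also passed after a further quantile normalization and after centring each array on its median, whereas *Cgn* and *Dsc2* did not. Of the 13 that were higher by less than 2-fold, 11 passed in all 3 scalings, among them *Cldn4*, *Cldn6*, *Cldn12*, *Cldn17*, *Cldn19*, *Cldn20*, *Tjp1*, *Pkp1*, *Pkp4* and *Dsp*, and *Cldn16* and *Cldn25* did not. The median over the probe sets with a symbol was 6.44 to 6.48 on the M0505 arrays and 6.28 to 6.32 on the STOSE arrays. Centring moved the median difference of all genes from 0.08 to 0.28, a shift of 0.20, and raised the share of higher genes among those that passed from 56.0% to 77.0% over all genes and from 57.7% to 79.5% among the 50. A difference smaller than this shift can change its sign with the scaling, while the 7 called genes kept their direction and their call in all 3 scalings.

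Altogether 31 of the 50 genes were above background in at least 1 line and 19 were below it in both, and no gene was left out of the test for being dim. The 19 comprised the 9 desmosomal cadherins, *Marveld2*, *Marveld3* and the 8 claudins named above. Their median difference was 0.08, as it was for all 5574 genes below background in both lines.

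The proteins that work with these junctions were described from 4 lists with 74 genes: tight junction adaptor and polarity genes, adherens junction and nectin genes, desmosome-linked filaments and cofactors, and transcription and splicing factors of epithelial junctions. In STOSE cells 10 of the 74 (13.5%) were lower and 4 (5.41%) were higher, against 7.59% and 4.9% of all genes. At the adjusted p alone 25 of the 74 were lower and 27 higher, against 24.8% and 31.6% of all genes. Their median difference was 0.13, against 0.08 over all genes.

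Of 27 adaptor and polarity genes, 5 (18.5%) were called lower and none higher, against 7.59% and 4.9% of all genes. At the adjusted p alone 13 were lower and 10 higher, against 24.8% and 31.6% of all genes. *Lsr*, the angulin that recruits tricellulin to cell corners, measured 10.52, 10.66 and 10.65 in M0505 cells and 6.74, 6.89 and 6.87 in STOSE cells. It fell by 3.78 on the log2 scale (SE 0.07, limma adjusted p = 5.2e-09), or 13.7-fold. The others were *Esam*, an adhesion protein related to the JAMs (-2.77, from 8.12 to 5.35), the scaffold *Magi2* (-2.41, at least 4.45-fold lower, with STOSE arrays under the background), *Pard6g* of the PAR polarity complex (-2.40, from 7.45 to 5.05) and *Inadl*, the PATJ scaffold of the Crumbs complex (-1.78, from 6.97 to 5.20). Their limma adjusted p-values ran from 1.85e-08 for *Esam* to 5.22e-07 for *Pard6g*. Genes of the same list with differences under 2-fold included the viral receptor *Cxadr* (-0.45), the cingulin relative *Cgnl1* (0.45) and the polarity scaffold *Pard3* (0.69), each with an adjusted p under 0.05.

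Of 15 adherens junction and nectin genes, 1 (6.67%) was called, against 12.5% of all genes. At the adjusted p alone 5 were lower and 3 higher, against 24.8% and 31.6% of all genes. The called gene was *Plekha7*, which anchors microtubules at the adherens junction. It measured 9.39, 9.25 and 9.15 in M0505 cells and 7.78, 7.86 and 7.78 in STOSE cells, a difference of -1.46 (SE 0.07, limma adjusted p = 9.6e-07). E-cadherin (*Cdh1*) was barely above background in both lines, at 4.79 and 4.82. Its difference of 0.03 (limma adjusted p = 0.7354) turned its sign after a further quantile normalization. *Cdh2* (10.48 and 10.67, limma adjusted p = 0.0588) and *Cdh3* (10.63 and 9.74, limma adjusted p = 2.37e-05) of the same list were bright in both lines. They are named after their values were seen. *Epcam*, an epithelial adhesion protein that binds claudin-7, was at 5.35 in M0505 cells and under the background at 4.48 in STOSE cells, at least 1.55-fold lower when the STOSE arrays are set to the background (limma adjusted p = 0.000206).

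The 12 genes of desmosome-linked filaments held the largest differences of the 4 lists. Of the 12, 3 (25%) were called lower and 2 (16.7%) higher, against 7.59% and 4.9% of all genes. At the adjusted p alone 5 were lower and 5 higher, against 24.8% and 31.6% of all genes. *Krt19*, a keratin of simple epithelia, measured 11.16, 11.16 and 11.20 in M0505 cells and 5.32, 5.66 and 5.86 in STOSE cells, and *Krt8*, the partner of *Krt18*, measured 11.39, 11.38 and 11.34 in M0505 cells and 6.76, 6.98 and 6.72 in STOSE cells. Neither keratin overlapped between the lines. *Krt19* fell by 5.56 on the log2 scale (SE 0.12, limma adjusted p = 1.14e-08) and *Krt8* by 4.55 (SE 0.08, limma adjusted p = 4.98e-09). *Krt7* was also called lower, with a difference of -1.03 that came under 2-fold after median centring (-0.83) and without M0505 replicate 2 (-0.985), M0505 replicate 3 (-0.997) or STOSE replicate 1 (-0.89). *Krt18* remained bright, with a difference of -0.84 (from 11.34 to 10.50). *Krt14*, the keratin of basal cells, was higher by 3.34 (from 6.44 to 9.78, limma adjusted p = 6.5e-08), and so was *Lmo7*, which binds afadin at the adherens junction, by 1.63 (from 5.57 to 7.20, limma adjusted p = 3.47e-07). *Plec* (0.85), *Macf1* (0.53) and *Krt5* (0.27, below background in M0505 cells) were higher by less than 2-fold, and *Perp* (-0.40) was lower. All 4 had an adjusted p under 0.05 and are named after their values were seen.

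Of 20 transcription and splicing factors of epithelial junctions, 1 (5%) was called lower and 2 (10%) higher, against 7.59% and 4.9% of all genes. With no demand on the fold, 2 passed the adjusted p as lower and 9 as higher, against 24.8% and 31.6% of all genes. *Grhl1*, the Grainyhead factor that is known to drive desmosomal cadherin genes, measured 7.13, 6.82 and 6.62 in M0505 cells and 5.13, 4.81 and 4.93 in STOSE cells. The difference was -1.90 (SE 0.13, limma adjusted p = 5.88e-06), without overlap. *Snai1*, a repressor of claudin, occludin and E-cadherin genes, measured 6.36, 6.29 and 6.29 in M0505 cells and 7.70, 7.82 and 7.70 in STOSE cells. It rose by 1.43 on the log2 scale (SE 0.06, limma adjusted p = 3.85e-07). *Klf4*, a factor of differentiated epithelia, was higher by 1.15 (SE 0.16, limma adjusted p = 0.000358). The other repressors were all under 2-fold. *Twist2* (0.86, limma adjusted p = 6.57e-05), *Snai2* (0.58, limma adjusted p = 0.000176), *Zeb1* (-0.51, limma adjusted p = 0.000257) and *Twist1* (0.23, limma adjusted p = 0.0252) passed the adjusted p. *Twist1* lost it without M0505 replicate 1 (0.0667) or STOSE replicate 2 (0.0893). *Zeb2* (0.20, limma adjusted p = 0.0702) and *Snai3* (-0.12, limma adjusted p = 0.4723) did not pass it. Of the epithelial factors, *Klf5* (0.65, limma adjusted p = 3.21e-05) and the splicing factor *Esrp2* (0.38, limma adjusted p = 0.0024) were higher by less than 2-fold, as was *Ovol1*, which was below background in M0505 cells (4.44 and 4.85). *Ovol2* gave 0.18, which lost the adjusted p in several fits that left out 1 array, and *Grhl2* was below background in both lines (3.72 and 4.04). So were *Elf3* (4.5 and 4.6), *Elf5* (4.32 and 4.39), *Ehf* (3.83 and 4.00) and *Esrp1* (3.78 and 3.90), and none of them passed the adjusted p. *Grhl3* (0.17) and *Trp63* (0.16) were above background and did not pass it. *Twist2*, *Snai3*, *Klf5*, *Ovol1*, *Esrp2*, *Elf3*, *Elf5*, *Ehf*, *Esrp1*, *Grhl3* and *Trp63* are named after their values were seen.

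**Figure D3:**
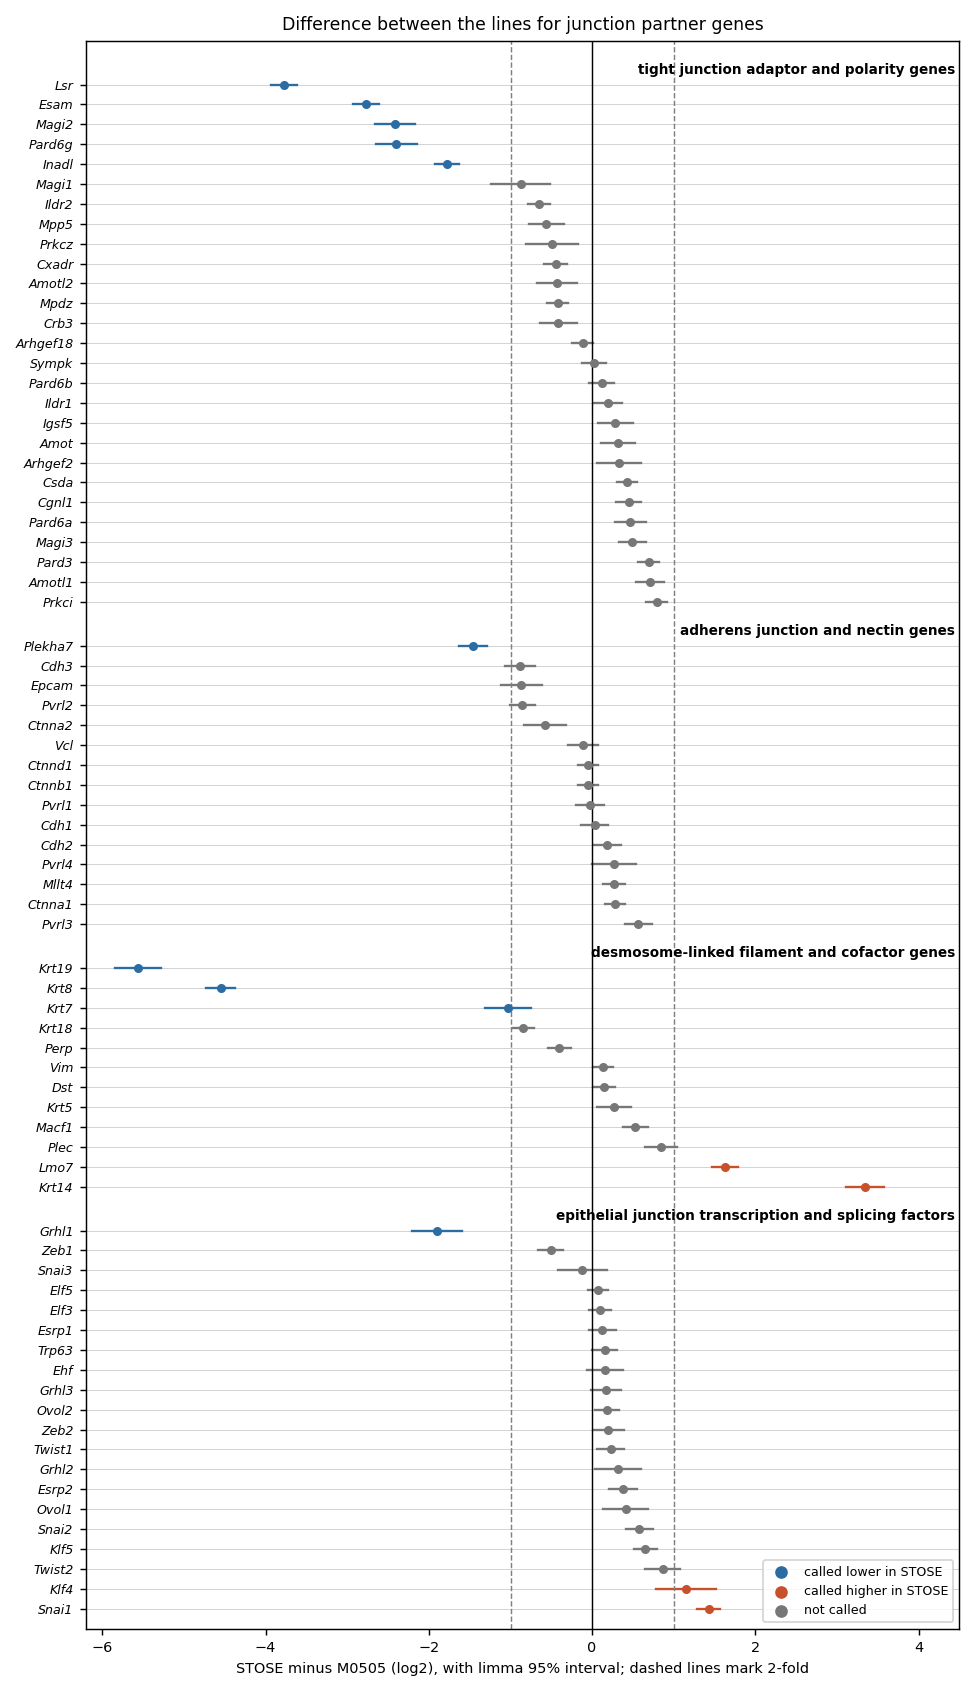
Difference between the lines (STOSE minus M0505, log2, horizontal axis) of the 74 junction partner genes with the 95% interval of limma, in 4 lists, with dashed lines at 2-fold. The 10 genes called lower (blue) reach from *Krt7* at -1.03 to *Krt19* at -5.56, and the 4 called higher (orange) are *Klf4*, *Snai1*, *Lmo7* and *Krt14*, the last at 3.34.

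The genome positions of the called genes were read by the RefSeq order of the genes, with 5 array genes on each side. Of the 50 genes, 9 lie on chromosome 16, among them *Ppl*, *Pkp2*, *Jam2* (lower) and *Cldn1* (higher), and the 9 desmosomal cadherins lie on chromosome 18. Medians of the 10 neighbors ran from -0.20 around *Ppl* to 0.08 around *Cldn1*, all within 2-fold. No neighbor was called around *Ppl* or *Jam3*. Single neighbors were called in the same direction as *Cldn10a* (*Dzip1*, -1.79, the next gene), *Pkp2* (*Fgd4*, -3.84, and *Fam128b*, -1.02) and *Cldn1* (*Leprel1*, 4.14, the next gene). Others were called in the opposite direction, namely *Adamts1* (3.81) near *Jam2*, and *Eln* (-4.53) and *Wbscr27* (-2.19) near *Cldn3*.

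**Figure D4:**
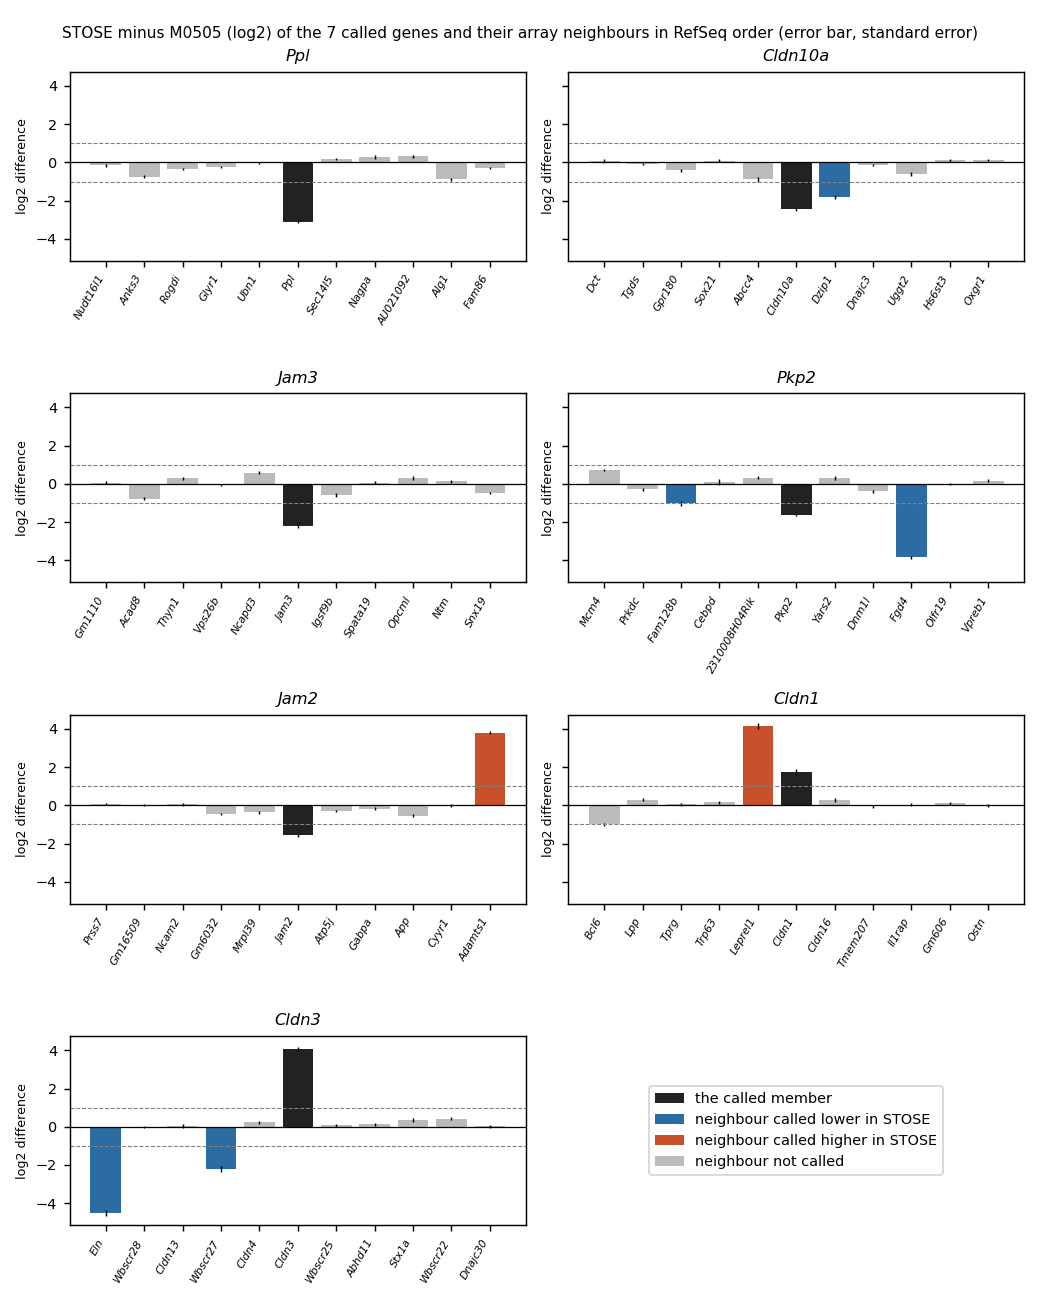
Difference between the lines (STOSE minus M0505, log2, vertical axis) of each of the 7 called genes (black bars) and its 5 array neighbors on each side in RefSeq order (horizontal axis, not to scale), with the standard error as error bar and dashed lines at 2-fold. Most neighbors are grey (not called), and *Cldn4* beside *Cldn3* stands at 0.23 while *Cldn3* stands at 4.08.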

How the data were processed

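Total RNA of M0505 and STOSE cells (3 arrays each) was hybridized to Mouse Gene 1.0 ST arrays of Affymetrix. The authors normalized the arrays with RMA in Affymetrix Expression Console and deposited 1 table of log2 values per probe set, beside their own line means and fold changes, which were not used. The versions of these tools, the annotation release and the genome build are not given in the sources used here. RMA equalizes the probe signals of the arrays, although the medians of the deposited values still lay lower on the STOSE arrays, and probe signals were not used here. All 6 value columns were matched to samples by name, with 0 left over.

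Of 28944 probe sets, 23530 had a symbol and stood for 20405 genes, of which 1613 had several probe sets. The probe set with the highest mean was kept. Lines were compared with lmFit and eBayes (limma 3.58.1, R 4.3.3) without covariates, with Benjamini-Hochberg adjustment over all 20405 genes, and tables were made in Python 3.11.15. A call needed an adjusted p under 0.05 together with a difference of 2-fold or more. The code was tested on simulated data. The background came from 1134 olfactory receptor probe sets. An array has no read depth, so the number of arrays limits the precision, and 3 against 3 arrays cannot give an exact two-sided permutation p under 0.1. Where 1 line was below background, its arrays were raised to the background and the fold is given as "at least".

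The genes named are the called ones, those above background, and a fixed set of junction genes and partners. Members, lists and rules were chosen with earlier results of these data known. The values of 1 of the 50 genes are not reported here, although it is included in the counts. Symbols of 49 genes matched RefSeq (GRCm38.p6), and *Cldn25* is a synonym of more than 1 gene there and was not matched. RefSeq placed 97.4% of the array genes, and only promoter windows are printed with coordinates, since no build is named for the array table. The alternatives were a further quantile normalization, median centring, other filters on dim genes, other summaries of probe sets, other tests and thresholds, a replicate block and leaving out each array.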

Additional observations from a re-analysis of the deposited data

How the results depend on the processing

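All 7 called genes of the 50 kept their direction and their call under a further quantile normalization, median centring, the mean of the probe sets, leaving out the dimmest 25% of genes, limma with trend and robust estimation, the methods' t-test with or without adjustment, the replicate block and leaving out any 1 array. Leaving out the dimmest 50% of genes kept fewer genes in the test, with 2 lower and 1 higher of the 50 and 6 partner genes lower. With a fold of 1.5, 8 of the 50 were lower, partner genes were 16 lower and 10 higher, and all genes 2871 and 2245. With the adjusted p alone, counts lower and higher were 11 and 15 of the 50, 25 and 27 partner genes, and 5066 and 6454 of all genes. Alternatives chosen after seeing the data gave, for the adjusted p alone after a further quantile normalization, 10 and 15, 24 and 28, and 4824 and 6427, and after median centring 9 and 35, 22 and 45, and 3804 and 12738. Leaving out 1 array at a time gave 5 to 6 lower and 2 higher of the 50 (*Ocln* joined without STOSE replicate 2), 9 to 10 lower and 4 higher partner genes, and 1508 to 1591 lower and 955 to 1065 higher of all genes, against 1548 and 1000 with all arrays. Among the 59 genes named by rule, only *Ocln* and *Krt7* crossed the threshold under the settings that kept the 2-fold limit and tested the gene. Same-numbered arrays of the lines did not deviate together throughout (correlations of 0.26, 0.04 and 0.25), and STOSE replicate 2 correlated best with M0505 replicate 3 (0.12), so the numbers were not taken as pairs, and with the replicate number as a block 5 of the 50 genes were lower and 2 higher, with 10 and 4 partner genes and 1548 and 1001 of all genes. The limits are 3 arrays a line, 1 transformed line, values of 19 genes under the background, and a table already normalized, so that the first normalization could not be varied.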
